A study of Mus musculus with 6 samples.

Results

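The immunoglobulin heavy variable genes (Ighv) of the mouse were read in 6 libraries of intestinal tissue, 3 from mice given cold water and 3 from control mice. The table of transcripts held 163 rows of the type IG_V_gene whose symbol starts with Ighv, and they belong to 113 genes. The 68 genes with a mean of at least 1 FPKM (fragments per kilobase of transcript, scaled to library depth) over the 6 libraries were kept. Of the other 45 genes, 15 had a count of 0 in all libraries and 30 had a count in at least 1 library. The members were thus chosen by their level in these libraries, and their level as such is a description. The whole table held 55267 genes, of which 12940 reached the same mean and were tested.

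Mice of the cold water group received 1 ml of water at 0 to 4 °C into the stomach at 8 am, and control mice received 1 ml at 20 to 25 °C at 9 am. Gavage was repeated daily for 14 days, and all animals lived at 22 °C. Strain, sex and age were not given in the sources used here, nor whether each library came from a separate mouse, so p-values measure the spread between these libraries, which may be technical. The sample labels name the proximal jejunum, whereas the design text of the series names the colon. Lct and Sis, the disaccharidases of the small intestinal brush border, stood at 237, 341 and 405 FPKM and at 489, 458 and 443 FPKM in cold water libraries, against 305, 244 and 341 FPKM and 583, 523 and 634 FPKM in control libraries. The libraries hold total RNA depleted of ribosomal RNA, and their totals of 72690433 to 78668871 estimated counts stand for about 19332561 to 20922572 fragments.

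A B cell builds its heavy chain gene by joining 1 V segment to a D and a J segment, a step that the RAG recombinase carries out in the bone marrow. The V segment encodes the leader peptide and most of the variable domain, and the constant gene that is spliced to it sets the isotype (IgM and IgD in naive B cells, IgA in most plasma cells of the gut). Each B cell clone transcribes 1 productively rearranged V segment, so the levels of the Ighv genes in a tissue add up from its B cells and plasma cells. The gut holds B cells in Peyer's patches and smaller follicles, and plasma cells, which carry far more immunoglobulin RNA per cell, in the lamina propria. In bulk tissue, fewer cells of a type and less RNA per cell cannot be told apart.

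All 68 genes lie on the minus strand of mouse chromosome 12 (GRCm38), upstream of the constant genes. The reference V segments of 3 highly expressed genes of different families are printed first, as the last 300 bases of the annotated transcript, 5′ to 3′, from GENCODE M21 (GRCm38), because they show what the reads were counted on. Capitals mark the last TGT, the codon of the conserved cysteine after which the third complementarity-determining region (CDR3) begins. Ighv9-3 had the highest mean level of all members and lies at chr12:114140692-114141122, Ighv1-26 lies at chr12:114788372-114788805 and Ighv3-6 at chr12:114288152-114288582.
Ighv9-3: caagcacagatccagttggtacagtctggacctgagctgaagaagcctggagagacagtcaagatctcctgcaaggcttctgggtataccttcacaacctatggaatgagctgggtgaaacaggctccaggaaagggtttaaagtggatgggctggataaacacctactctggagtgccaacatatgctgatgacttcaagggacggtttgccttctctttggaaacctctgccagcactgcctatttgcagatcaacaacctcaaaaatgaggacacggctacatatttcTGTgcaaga
Ighv1-26: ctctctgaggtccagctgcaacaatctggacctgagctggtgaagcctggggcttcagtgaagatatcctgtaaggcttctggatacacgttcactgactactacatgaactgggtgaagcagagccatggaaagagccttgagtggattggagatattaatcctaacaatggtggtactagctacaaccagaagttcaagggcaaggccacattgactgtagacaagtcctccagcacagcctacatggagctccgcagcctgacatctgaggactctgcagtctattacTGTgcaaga
Ighv3-6: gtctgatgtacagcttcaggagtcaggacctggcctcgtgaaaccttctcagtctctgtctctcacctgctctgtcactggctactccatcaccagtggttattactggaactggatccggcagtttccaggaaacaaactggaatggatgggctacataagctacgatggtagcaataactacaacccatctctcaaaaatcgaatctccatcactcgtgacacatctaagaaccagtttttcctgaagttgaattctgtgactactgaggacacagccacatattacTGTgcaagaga

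The ends of 6 further genes, all of family 1, are shown to make visible how alike members of that family are where the V segment meets the D segment. They are the last 60 bases, 5′ to 3′, with the same codon in capitals, of Ighv1-81 (chr12:115920279-115920712), Ighv1-72 (chr12:115757984-115758461), Ighv1-15 (chr12:114657353-114657786), Ighv1-55 (chr12:115208095-115208591), Ighv1-82 (chr12:115952538-115953005) and Ighv1-9 (chr12:114583569-114584002).
Ighv1-81: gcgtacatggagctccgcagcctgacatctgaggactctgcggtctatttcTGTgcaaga
Ighv1-72: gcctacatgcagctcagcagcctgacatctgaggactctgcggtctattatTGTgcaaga
Ighv1-15: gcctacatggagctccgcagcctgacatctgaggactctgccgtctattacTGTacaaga
Ighv1-55: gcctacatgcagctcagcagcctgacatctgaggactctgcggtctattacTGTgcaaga
Ighv1-82: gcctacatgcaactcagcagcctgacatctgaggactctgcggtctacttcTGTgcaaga
Ighv1-9: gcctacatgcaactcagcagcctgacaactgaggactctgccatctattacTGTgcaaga
The letters TGTGCAAGA, which hold that codon, were found on the coding strand within the last 25 bases of 45 of the 68 kept genes (66.2%). They were found in 18 of the 45 genes not kept (40.0%) and in 21 of the 70 Ighv pseudogenes (30.0%). A match describes the letters only.

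The members are so alike that reads can be shared between them. Of the 68 kept genes, 62 were at least 90% identical over the V segment to another Ighv gene and 44 at least 95%, with a median of 96.0% to the nearest gene and a lowest value of 85.8%. The closest pair was Ighv1-62-3 (chr12:115460999-115461485) and Ighv1-72, 99.2% identical with 3 differences over 396 bases. All 3 differences lie in the last 300 bases printed here, with the differing bases in capitals, and counted from 1 at the 5′ end of the printed bases they are C5T, T70A and T291C, with the base of Ighv1-72 first.
Ighv1-62-3: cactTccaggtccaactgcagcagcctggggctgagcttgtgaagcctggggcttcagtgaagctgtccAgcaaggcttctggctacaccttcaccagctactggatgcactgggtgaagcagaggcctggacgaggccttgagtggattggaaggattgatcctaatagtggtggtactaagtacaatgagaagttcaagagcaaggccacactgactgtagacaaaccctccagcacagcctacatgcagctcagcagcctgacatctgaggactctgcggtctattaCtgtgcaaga
Ighv1-72: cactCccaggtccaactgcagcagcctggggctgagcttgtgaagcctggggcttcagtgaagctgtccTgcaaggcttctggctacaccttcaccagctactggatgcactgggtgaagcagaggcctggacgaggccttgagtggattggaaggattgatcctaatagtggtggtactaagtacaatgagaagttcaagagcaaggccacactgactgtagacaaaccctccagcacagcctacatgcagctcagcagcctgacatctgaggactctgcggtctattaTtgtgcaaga
Ighv1-62-3 stood at 7.55, 0.401 and 1.15 FPKM in cold water libraries and at 1.46, 0 and 0 FPKM in control libraries. Ighv1-72 stood at 57.3, 9.00 and 10.2 FPKM in cold water libraries and at 10.1, 5.56 and 3.96 FPKM in control libraries. Levels of single genes in such pairs are uncertain, since the sources used here do not say how reads that match several genes were assigned. Sums over the 68 genes do not depend on the split among these, but can depend on reads shared with genes not kept or with pseudogenes. Ighv1-15, for one, was 98.0% identical to Ighv1-23, which was not kept. Ighv1-62-3 was picked for this pair and not by its level.

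Of the 6 libraries, cold water 1 stood apart before any comparison of groups. The summed level of the 68 genes was 473, 102 and 121 CPM (counts scaled to the library total by TMM factors) in cold water libraries 1, 2 and 3, and 67.7, 70.9 and 80.0 CPM in control libraries 1, 2 and 3. Cold water 1 was 5.35 times the mean of the other 5 libraries. The other cold water libraries lay closer to the control libraries, though still above each of them, so the groups did not overlap. The group means were 232 ± 209 CPM in cold water and 72.9 ± 6.37 CPM in control libraries (SD, n = 3 each), a ratio of 3.18. Without cold water 1 the ratio was 1.53. On the log2 scale the mean difference was 1.31 with all libraries and 0.61 without cold water 1. The values rest on about 10676, 1982 and 2084 fragments in cold water libraries and 1366, 1501 and 1495 fragments in control libraries, which is 0.0510, 0.0102 and 0.0108% of all counts against 0.00689, 0.00777 and 0.00719%. Because the members were chosen with these values in view, no test was made on the sum.

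Single genes of high mean level were read next. Ighv9-3, with the highest mean, stood at 61.4, 9.34 and 28.6 FPKM in cold water libraries and at 9.87, 24.7 and 9.00 FPKM in control libraries. Its control 2 value lay above its cold water 2 value, so the groups overlapped. Ighv1-26 stood at 68.0, 12.5 and 12.2 FPKM in cold water libraries and at 5.94, 8.60 and 8.36 FPKM in control libraries. All cold water values lay above all control values, and the fitted log2 difference was 1.95 ± 0.67 (SE) with all libraries and 0.77 without cold water 1. Ighv3-6 stood at 28.1, 14.7 and 7.86 FPKM in cold water libraries and at 17.6, 5.84 and 5.84 FPKM in control libraries. Control 1 exceeded cold water 2 and 3 for Ighv3-6, and its log2 difference was 0.76.

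The other genes of high mean level belong to family 1, the largest mouse family. Ighv1-39 stood at 67.3, 7.97 and 9.70 FPKM in cold water libraries and at 9.26, 5.17 and 10.0 FPKM in control libraries, and Ighv1-81 at 49.2, 10.1 and 11.0 FPKM against 5.87, 13.7 and 6.36 FPKM. In both genes cold water 2 and 3 lay within the control range. Ighv1-15 stood at 43.3, 8.06 and 12.6 FPKM in cold water libraries and at 2.97, 11.6 and 1.95 FPKM in control libraries, with control 2 between cold water 2 and 3. Ighv1-64 stood at 44.5, 7.44 and 12 FPKM in cold water libraries and at 3.91, 4.61 and 5.45 FPKM in control libraries, without overlap. Ighv1-55 stood at 49.3, 5.69 and 7.18 FPKM in cold water libraries and at 7.49, 2.45 and 2.64 FPKM in control libraries, with control 1 above cold water 2 and 3. Ighv1-22 stood at 36.8, 8.72 and 5.53 FPKM in cold water libraries and at 2.09, 5.26 and 13.8 FPKM in control libraries, where control 3 was second to cold water 1. Cold water 1 was the highest library for each of these 6 genes.

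Across the 68 genes the same library led. The highest FPKM value was that of cold water 1 for 60 genes, cold water 2 for 2, cold water 3 for 3, control 1 for 1, control 2 for 0 and control 3 for 2. The FPKM of cold water 1 over the mean of the other 5 libraries ranged from 1.49 in Ighv8-5 to 223 in Ighv1-31, with a median of 5.68, and 48 genes were at 4 or more. All 68 genes had at least 1 FPKM in cold water 1, and 52 and 51 did in cold water 2 and 3, against 40, 42 and 40 in control 1, 2 and 3. In all 6 libraries together 25 genes reached 1 FPKM. Zero counts were found for 0, 3 and 1 of the genes in cold water libraries and for 4, 4 and 11 in control libraries. A count of 0 allows up to 3 fragments, or 0.143 to 0.155 CPM before TMM scaling, by counting error alone. Ighv1-31, named after its values were seen, was found almost in cold water 1 alone, with 10.7, 0 and 0.160 FPKM in cold water libraries and 0, 0.0794 and 0 FPKM in control libraries.

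**Figure D1:**
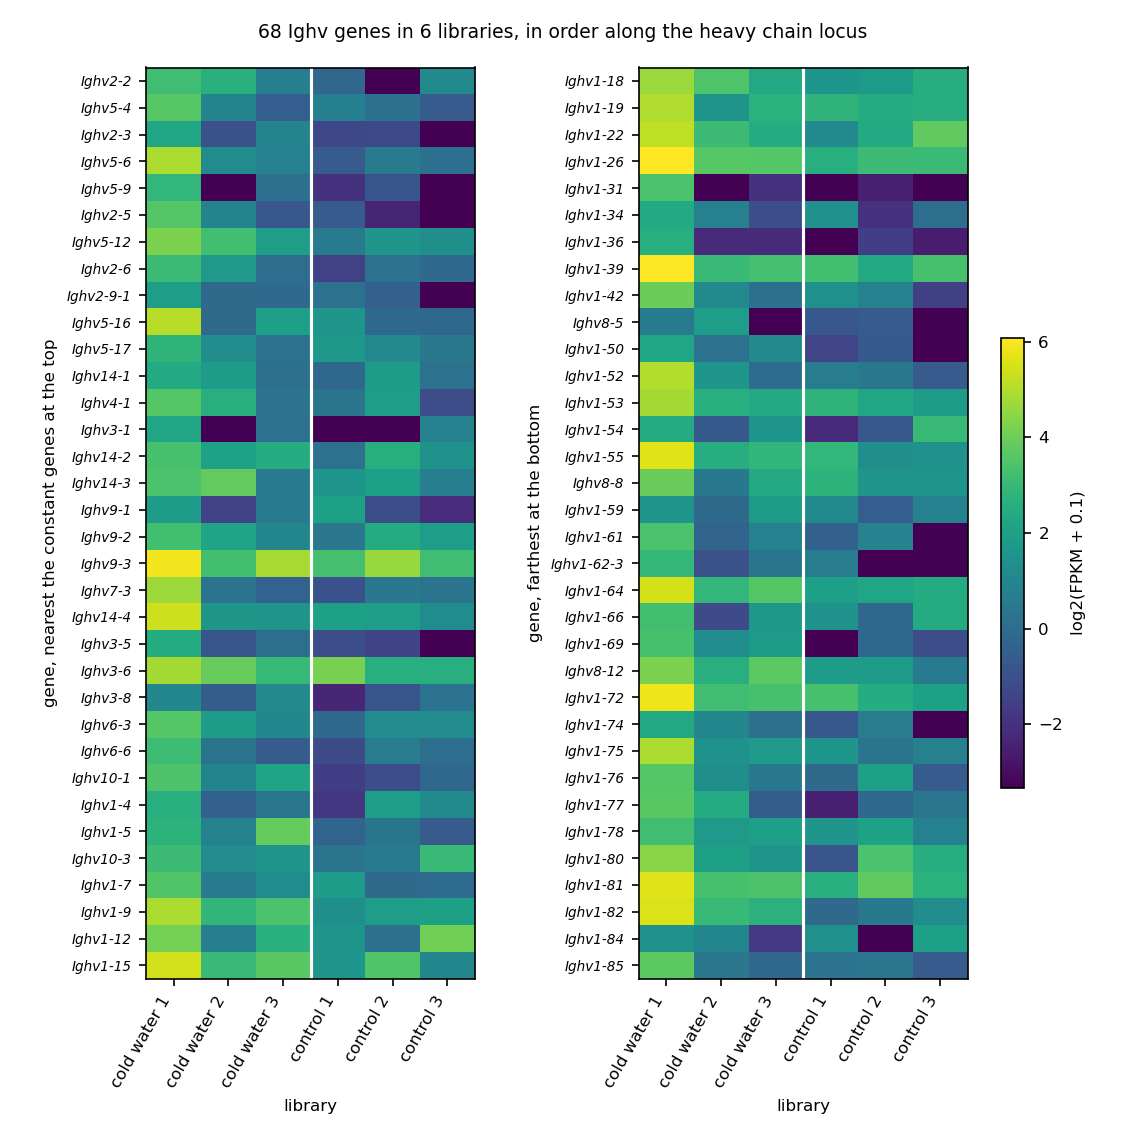
Level of each of the 68 Ighv genes (rows, in order along chromosome 12 from the constant genes outward) in the 6 libraries (columns), as log2(FPKM + 0.1), with the darkest colour for a count of 0. The column of cold water 1 is the brightest for 60 of the 68 genes, and the other 5 columns differ from each other gene by gene.

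The threshold of the rule depended on that library. Over the other 5 libraries, 17 of the 68 genes had a mean under 1 FPKM, and 51 genes would have been kept. Ighv1-36, Ighv3-8 and Ighv8-5 lay just inside the threshold with means of 1.08, 1.05 and 1.04 FPKM. Ighv9-4, Ighv1-58 and Ighv2-9 lay just outside it with means of 0.903, 0.794 and 0.771 FPKM. Ighv1-36 stood at 5.95, 0.117 and 0.124 FPKM in cold water libraries and at 0, 0.234 and 0.0626 FPKM in control libraries. A gene could therefore enter the list by being high in cold water 1, and counts over the members describe the genes kept without supporting a difference between the groups.

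Set against the 12940 genes tested, 0.0386% of which passed an adjusted p of 0.05 in either direction (5 genes, 2 of them higher in cold water, 0.0155%), 0 of the 68 Ighv genes passed in the quasi-likelihood test of edgeR after Benjamini-Hochberg adjustment. Their adjusted p-values lay between 0.878 and 0.995. At an unadjusted p under 0.05 in the same test, 24 of the 68 (35.3%) were higher in cold water, against 2.88% of all genes, and 0 were lower, against 2.13%. With no filter on level, 29 of the 68 (42.6%) were higher at that p, against 2.14% of all genes. The fitted difference was above 0 for 66 of the 68 genes, against 54.2% of all genes. The median log2 difference was 1.93 over the members (range -0.53 to 6.74) and 0.03 over all genes tested. The upper end is Ighv1-31, whose control values were at or near 0, so that its fitted value depends on the prior count. In CPM, 14 of the 68 (20.6%) had all cold water values above all control values, against 5.29% of all genes, and 0 had them all below, against 5.22%.

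Without cold water 1 the members stood nearer to the background. The unadjusted p was under 0.05 for 9 of the 68 genes (13.2%) in the direction of higher levels in cold water, against 3.03% of all genes, in an edgeR fit of 5 libraries. The difference was above 0 for 51 of the 68 (75.0%), against 49.9% of all genes, and the median log2 difference was 0.69 over the members and -0.00 over all genes. The groups did not overlap for 14 genes (20.6%) higher in cold water, against 10.3%, and for 0 genes lower, against 10.9%. DESeq2, run as an alternative with all 6 libraries, passed 5 of the 68 genes, all higher in cold water, against 0.286% of all genes in that direction. It gave no adjusted p for Ighv14-4, Ighv5-6, Ighv7-3, Ighv1-85, Ighv1-31 and Ighv1-36, each of them highest in cold water 1. The 5 genes that passed were Ighv1-82, Ighv10-1, Ighv8-12, Ighv1-9 and Ighv1-5, with DESeq2 adjusted p-values of 0.0122, 0.0123, 0.0229, 0.0303 and 0.0380.

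**Figure D2:**
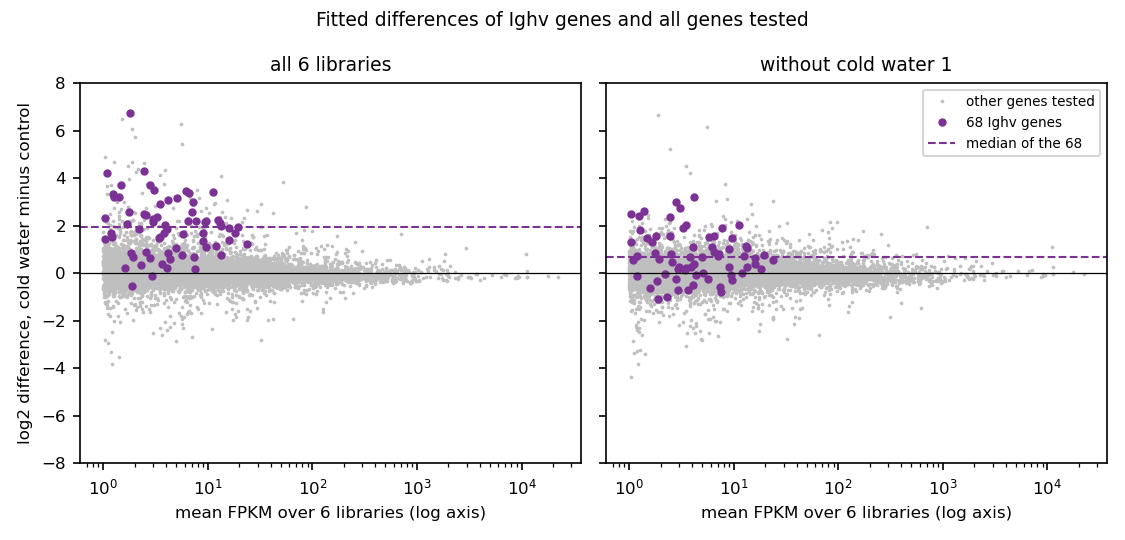
Fitted log2 difference, cold water minus control (edgeR), against the mean FPKM over 6 libraries (log axis) for all genes tested (grey) and the 68 Ighv genes (purple), with all 6 libraries and without cold water 1. The dashed line marks the median of the Ighv genes, 1.93 on the left and 0.69 on the right, and 3 and 5 genes that are not Ighv lie beyond the axis limits of 8.

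The same 5 genes had the smallest unadjusted p-values among the members. Ighv10-1 stood at 11.0, 1.78 and 4.36 FPKM in cold water libraries and at 0.232, 0.370 and 0.799 FPKM in control libraries. Each cold water value lay above each control value, and the log2 difference was 3.50 ± 0.81 (SE) with all libraries and 2.75 without cold water 1. Ighv1-5 stood at 6.71, 1.67 and 14.4 FPKM in cold water libraries and at 0.721, 1.15 and 0.550 FPKM in control libraries. Cold water 3 was its highest library, and its log2 difference was 3.06 ± 0.80 with all libraries and 3.21 without cold water 1. Ighv8-12 stood at 18.9, 5.86 and 13.2 FPKM in cold water libraries and at 3.55, 3.57 and 1.33 FPKM in control libraries, with a log2 difference of 2.19 ± 0.53 and 1.9 without cold water 1.

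Ighv1-9 stood at 30.2, 7.22 and 10.6 FPKM in cold water libraries and at 2.50, 3.64 and 3.97 FPKM in control libraries. Its log2 difference was 2.20 ± 0.55 with all libraries and 1.48 without cold water 1. Ighv1-82 stood at 48.4, 8.04 and 6.55 FPKM in cold water libraries and at 0.852, 1.29 and 2.32 FPKM in control libraries, with a log2 difference of 3.42 ± 0.91 and 2.04 without cold water 1. None of the 5 passed the edgeR threshold, where all had an adjusted p of 0.878. At the other end, Ighv1-84 and Ighv1-54 were the members with a fitted difference below 0. Ighv1-84 stood at 2.76, 1.9 and 0.199 FPKM in cold water libraries and at 2.55, 0 and 3.90 FPKM in control libraries, a log2 difference of -0.53 ± 1.39. Ighv1-54 stood at 5.38, 0.542 and 2.97 FPKM in cold water libraries and at 0.121, 0.493 and 8.17 FPKM in control libraries, a log2 difference of -0.11 ± 1.43. For both, control 3 was the highest library, the groups overlapped widely, and the sign turned under other settings.

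Shares within a library remove the total Ighv level and show the make-up alone. The leading gene was Ighv1-26 with 5.13% of the summed counts of the 68 genes in cold water 1, Ighv14-3 with 6.09% in cold water 2 and Ighv9-3 with 10.2% in cold water 3. In control libraries it was Ighv3-6 with 9.93% in control 1, Ighv9-3 with 12.3% in control 2 and Ighv1-12 with 7.63% in control 3. No gene led all libraries of a group, and Ighv9-3 led in 1 library of each. Ighv14-3 stood at 10.6, 14.1 and 1.38 FPKM in cold water libraries and at 3.01, 3.83 and 1.52 FPKM in control libraries. Ighv1-12 stood at 17.5, 1.52 and 6.18 FPKM in cold water libraries and at 2.86, 0.990 and 16.7 FPKM in control libraries.

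Within the 68 kept genes, control libraries had a larger part of their Ighv counts in few genes. The 5 highest genes held 24.1, 24.5 and 28.9% in cold water libraries and 32.2, 34.4 and 29.9% in control libraries, without overlap. The 10 highest held 41.2, 42.0 and 48.5% in cold water libraries and 51.1, 49.3 and 49.5% in control libraries. The effective number of genes, the number of equally frequent genes that would give the same Shannon entropy, was 47.7, 44.5 and 40.8 in cold water libraries and 37.9, 37.4 and 36.9 in control libraries. Cold water 1, with the most Ighv fragments, also had the highest effective number. Cold water 3 had more fragments than cold water 2 (about 2084 against 1982) and a lower effective number. The part of depth in the effective numbers was not tested. At a common 1365 fragments, the expected number of kept genes seen was 67.5, 64.5 and 66.1 in cold water libraries and 64.0, 63.8 and 56.8 in control libraries. Over all 113 genes at 1412 fragments it was 82.0, 80.2 and 79.9 in cold water libraries and 75.0, 77.5 and 65.6 in control libraries. The 17 genes that reached the list only with cold water 1 are part of all these numbers. The numbers over all 113 genes do not depend on the level rule, and the others do. The shares and effective numbers were also taken at unlike numbers of fragments. They describe the kept genes without supporting a difference between the groups.

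By the mean values, libraries of the same group were no more alike in these shares than libraries of different groups. The Pearson correlation of log2 shares over the 68 genes was 0.526 to 0.666 (mean 0.582) over the 6 pairs within a group and 0.545 to 0.706 (mean 0.616) over the 9 pairs between groups. The Bray-Curtis distance, which is 0 for identical shares, averaged 0.338 within and 0.334 between groups. The correlation is over genes and not over independent samples, and all libraries share the same reference and gene lengths. As shares, 5 of the 68 genes (7.35%) had all cold water values above all control values (Ighv1-82, Ighv1-9, Ighv10-1, Ighv1-69 and Ighv1-50), and 1 gene (1.47%) had them all below. In CPM, which is another measure, 5.29 and 5.22% of all genes did so in these directions. Shares of the Ighv sum have no matched background here, and their counts do not support a difference between the groups. Ighv1-50 had a mean of 0.785 FPKM over the libraries other than cold water 1, so it reached the list only with that library. The gene with lower shares was Ighv1-19, at 2.69, 1.25 and 2.59% in cold water libraries and 4.42, 3.12 and 3.58% in control libraries. Ighv1-69, Ighv1-50 and Ighv1-19 were named after their values were seen, and no share was tested.

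**Figure D3:**
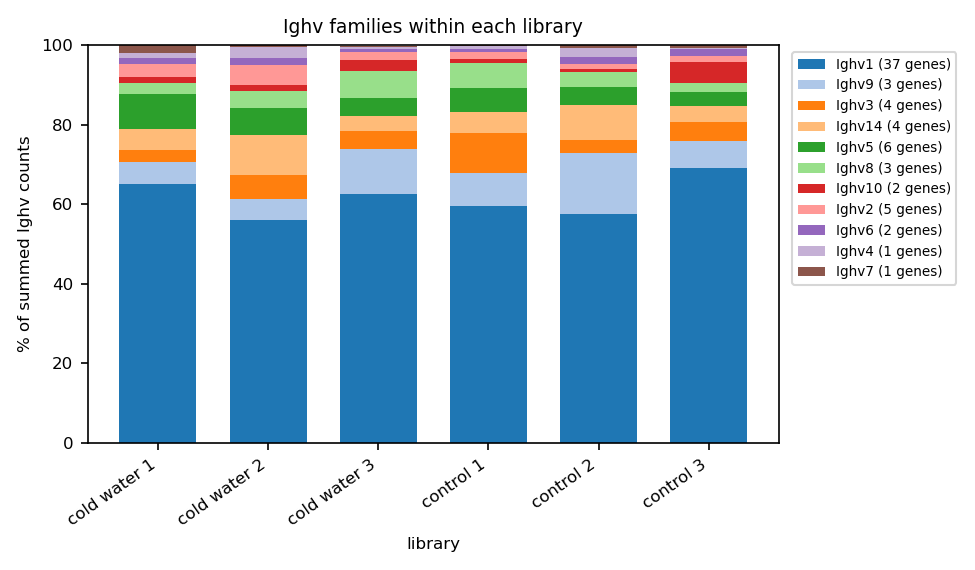
Share of the summed Ighv counts (%, vertical axis) held by each Ighv family in each of the 6 libraries, with the number of kept genes per family in the legend. Family 1 holds 56.0 to 69.1% in every library, and the smaller families change place from library to library in both groups.

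By family, which the first number of the symbol gives and which groups V segments of alike sequence, 37 of the 53 genes of family 1 were kept. Family 1 held 65.2, 56.0 and 62.7% of the Ighv counts in cold water libraries and 59.6, 57.6 and 69.1% in control libraries. Family 9, with 3 of 4 genes kept, held 5.58, 5.34 and 11.3% in cold water libraries and 8.24, 15.2 and 6.87% in control libraries. Most of it was Ighv9-3, and control 2 was the highest library. Family 3 held 2.99, 6.01 and 4.34% in cold water libraries and 10.2, 3.31 and 4.70% in control libraries, where Ighv3-6 made control 1 the highest. Family 14 held 5.17, 10.2 and 3.92% in cold water libraries and 5.26, 8.82 and 4.14% in control libraries. Family 5, with 6 of 10 genes kept, held 8.91, 6.67 and 4.61% in cold water libraries and 6.11, 4.69 and 3.52% in control libraries. All these shares overlapped between the groups.

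Family 2 was the family whose shares did not overlap, at 3.19, 5.06 and 2.05% in cold water libraries and 1.83, 1.12 and 1.64% in control libraries, with 5 of 9 genes kept. Ighv2-5, Ighv2-3 and Ighv2-9-1 had means of 0.584, 0.557 and 0.671 FPKM over the libraries other than cold water 1. They thus reached the list only with that library. The family was singled out from all families after the shares were seen, and its shares do not support a difference between the groups. Its members were low and were named after their values were seen. Ighv2-2 stood at 9.08, 6.20 and 1.52 FPKM in cold water libraries and at 0.752, 0 and 2.18 FPKM in control libraries. Ighv2-6 stood at 8.51, 3.32 and 0.926 FPKM in cold water libraries and at 0.260, 1.04 and 0.840 FPKM in control libraries. The FPKM values of both overlapped between the groups, and Ighv2-3, at 4.64, 0.402 and 1.74 FPKM in cold water libraries and 0.312, 0.333 and 0 FPKM in control libraries, did not overlap. None of the genes of families 11, 12, 13, 15 and 16 was kept. The median log2 difference of families with at least 3 kept genes ranged from 0.58 in family 9 to 2.59 in family 5.

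To read the levels by position along the locus, the 113 genes were cut into 4 blocks from the constant gene end outward, of 29, 28, 28 and 28 genes, of which 55.2, 57.1, 60.7 and 67.9% were kept. The block nearest the constant genes (chr12:113578504-114069281, from Ighv5-2 to Ighv16-1) held 15.6, 23.4 and 10.4% of the Ighv counts in cold water libraries and 11.7, 15.0 and 9.25% in control libraries. The farthest block (chr12:115294062-116000461, from Ighv8-8 to Ighv1-85) held 29.3, 26.5 and 31.4% in cold water libraries and 29.4, 29.8 and 25.3% in control libraries. The shares of all 4 blocks overlapped between the groups.

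The light chain showed the same order of libraries at its top. The summed level of the kappa variable genes (Igkv), whose product pairs with the heavy chain, was 808, 155 and 199 CPM in cold water libraries and 116, 112 and 139 CPM in control libraries, again without overlap and with cold water 1 far above the rest. For each 1000 Igkv counts there were 585, 660 and 608 Ighv counts in cold water libraries and 582, 635 and 576 in control libraries. This ratio was in the same range in cold water 1 as in the others.

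The heavy constant genes differed more in how far cold water 1 stood out. Igha, the constant gene of IgA, stood at 4465, 1827 and 2260 CPM in cold water libraries and at 1988, 1219 and 1696 CPM in control libraries, with overlap. For each 1000 Igha counts there were 106, 56.0 and 53.5 Ighv counts in cold water libraries and 34.1, 58.2 and 47.2 in control libraries. Ighm, the constant gene of IgM, stood at 223, 13.4 and 16.4 CPM in cold water libraries and at 10.6, 23.2 and 7.23 CPM in control libraries. Ighd, which naive B cells transcribe together with Ighm, stood at 59.7, 0.618 and 1.59 CPM in cold water libraries and at 0.396, 0.641 and 0.370 CPM in control libraries. The IgG constant genes summed to 410, 26.2 and 83.1 CPM in cold water libraries and 15.2, 29.3 and 18.8 CPM in control libraries. Cold water 1 was 2.48 times the mean of the other 5 libraries for Igha, 5.35 times for the Ighv sum, 15.8 times for Ighm and 82.6 times for Ighd.

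**Figure D4:**
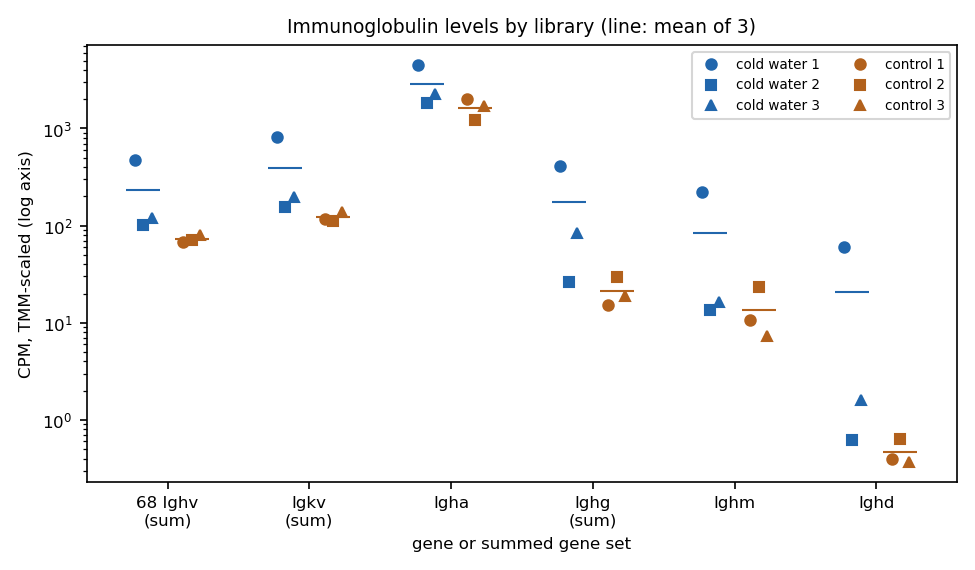
Level by library (points, CPM on a log axis) of the summed 68 Ighv genes, the summed Igkv genes, Igha, the summed IgG constant genes, Ighm and Ighd, with a line at each mean of 3 libraries, cold water at the left of each pair. Cold water 1 is the highest library in each, at 473 CPM for the Ighv sum and 59.7 CPM for Ighd, and the other 5 libraries lie at 67.7 to 121 CPM for the Ighv sum.

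Markers of B cells and of other cells of lymphoid tissue were read beside the Ighv sum. The 14 B cell markers, none of them at 0 in all libraries, summed to 352, 19.7 and 29.5 CPM in cold water libraries and 23.8, 22.9 and 18.3 CPM in control libraries. Ms4a1 (CD20) stood at 10.6, 0.0761 and 0.206 FPKM in cold water libraries and at 0.0857, 0.177 and 0.127 FPKM in control libraries. For the B cell list cold water 1 was 15.4 times the mean of the other 5 libraries, and without it the ratio of cold water to control was 1.13. The plasma cell list of 12 genes summed to 1136, 483 and 605 CPM in cold water libraries and 488, 393 and 548 CPM in control libraries. Jchain, which joins IgA into dimers, stood at 531, 156 and 192 FPKM in cold water libraries and at 162, 110 and 173 FPKM in control libraries. Prdm1 went another way, at 1.58, 2.25 and 3.07 FPKM in cold water libraries and 1.05, 1.21 and 1.87 FPKM in control libraries. The other genes of the list were highest in cold water 1, some by little. Sdc1 stood at 21.6, 17.9 and 19.4 FPKM in cold water libraries and at 17.6, 19.4 and 16.0 FPKM in control libraries.

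Cold water 1 was also the highest library for the lists of T cells, follicular dendritic cells, germinal centres, macrophages and the epithelium over Peyer's patches, and not for that of enterocytes. T cell markers (10 genes) summed to 124, 28.9 and 59.0 CPM in cold water libraries and 48.0, 27.8 and 37.5 CPM in control libraries. Follicular dendritic cell markers (4 of 5 entries found) summed to 210, 53.0 and 58.7 CPM in cold water libraries and 61.0, 59.6 and 47.7 CPM in control libraries. Cxcl13, the chemokine that draws B cells into follicles, stood at 22.9, 1.43 and 0.927 FPKM in cold water libraries and at 2.28, 2.05 and 0.891 FPKM in control libraries. For Cxcl13 the libraries other than cold water 1 overlapped between the groups. Germinal centre genes (8) summed to 56.1, 24.4 and 31.9 CPM in cold water libraries and 33.1, 29.1 and 32.9 CPM in control libraries. Fas went the other way, at 9.21, 6.81 and 7.69 FPKM in cold water libraries and 14.1, 10.2 and 10.8 FPKM in control libraries. Macrophage genes (6) summed to 114, 46.2 and 46.2 CPM in cold water libraries and 45.0, 55.1 and 37.0 CPM in control libraries. Genes of the epithelium over Peyer's patches (5) summed to 65.7, 25.5 and 47.5 CPM in cold water libraries and 31.0, 26.6 and 23.2 CPM in control libraries. Ccl20 of this list stood at 9.91, 2.06 and 26.9 FPKM in cold water libraries and at 4.04, 3.63 and 1.34 FPKM in control libraries. Its highest library was cold water 3, and Spib of this list is also among the B cell markers. All these sums overlapped between the groups. Enterocyte genes (7) summed to 24790, 33987 and 38296 CPM in cold water libraries and 32686, 23830 and 37808 CPM in control libraries. The part of the B cell, T cell and follicle markers in the Ighv levels was not tested.

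Among the genes that act on the V segments and on the antibody, 10 genes of V(D)J recombination summed to 71.6, 56.5 and 50.1 CPM in cold water libraries and 50.7, 59.7 and 53.1 CPM in control libraries. Rag1, the catalytic part of the RAG recombinase, had a count in cold water 2 alone, at 0.0138 FPKM. The members that passed the level filter were the general DNA repair genes Xrcc4, Xrcc5, Xrcc6, Lig4 and Nhej1. The list of IgA switching and transport (14 genes) summed to 5488, 4155 and 4220 CPM in cold water libraries and 3980, 3820 and 4867 CPM in control libraries. Pigr, the receptor that carries IgA across the epithelium, stood at 971, 707 and 642 FPKM in cold water libraries and at 734, 702 and 739 FPKM in control libraries. Tnfrsf13c, a receptor of the B cell survival factor BAFF, stood at 9.47, 0.107 and 0.406 FPKM in cold water libraries and at 0.176, 0.122 and 0.0687 FPKM in control libraries, with cold water 2 below control 1 and 2. Of the 73 genes tested in these lists and the cell type and constant gene lists together, 0 passed the adjusted threshold of edgeR in either direction, against 0.0386% of all genes. At an unadjusted p under 0.05 in edgeR, 14 of them were higher in cold water, against 2.88% of all genes, and 0 lower, against 2.13%. The counts were 6 of 10 B cell markers tested, 4 of 7 constant genes, 1 of 10 plasma cell genes, 1 of 10 T cell genes, 1 of 3 genes of the epithelium over Peyer's patches, 1 of 11 genes of IgA switching and transport and 0 of 5 genes of V(D)J recombination. In the remaining lists they were 0 of 3 germinal centre, 0 of 4 follicular dendritic cell, 0 of 5 macrophage and 0 of 7 enterocyte genes. DESeq2 passed 1 gene of these lists, Tnfrsf13c, which was higher in cold water, against 0.286% of all genes in that direction.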

How the data were processed

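Per the file headers, the authors deposited an FPKM value and an estimated count for each of 142604 transcripts and 6 libraries. In the values, a count of 0 is listed as 0.0001 FPKM, and dividing each count by FPKM and length gives the same constant within a library, up to rounding (tolerance 0.02). Counts are thus coverage estimates, and 1 fragment is worth 3.76 counts. Intervals and floors cover counting error only. The submitters' processing notes name StringTie 1.3.4d, HISAT2 2.0.4, cutadapt 1.9, FastQC 0.10.1, DESeq2 and edgeR. The sources used here give neither their settings nor the genome build or the use of strand. All 163 Ighv rows had the coordinates of GENCODE M21 (GRCm38), whose transcripts gave the sequences. A read that crosses the joint of V and D could be counted only as far as it was aligned to the V segment, and the effect of this was not tested.

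Estimated counts were summed by gene symbol. Genes with a mean of at least 1 FPKM were tested with the quasi-likelihood fit of edgeR 4.0.16 (R 4.3.3), with TMM factors of 0.895 to 1.11, group as the only term and Benjamini-Hochberg adjustment over 12940 genes at 0.05. Library totals in this fit and for CPM were sums over the 12940 genes tested. The shares of all counts were taken from sums over the whole table. The SE of a log2 difference was not taken from the fit. It was calculated back as the absolute difference divided by the square root of the F statistic of the test. DESeq2 1.42.0 and limma 3.58.1 were alternatives. The script was tested on simulated data. Identity was taken from alignment of the whole annotated sequence of each gene within that of each other one. The members and gene lists were chosen with earlier results of these data known. Genes named were the 12 with the highest mean, the top 3 of each library, the up to 5 with the smallest p in each direction, 3 on either side of the threshold, and in the other lists the genes with the highest level. Other markers and further genes were chosen after their values were seen. Single values of a few list genes are not reported here.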

Additional observations from a re-analysis of the deposited data

How the results depend on the processing

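Over all genes, 5 passed in the edgeR test, 3 with library totals alone, 3 without the level filter, 3 with limma on log2(FPKM + 1), 3 with limma on log2(FPKM + 0.1), 71 with DESeq2 and 0 to 1 when a library was left out. Of the Ighv genes, 0 passed in all of these but DESeq2, where 5 did. Same-numbered libraries correlated at -0.006, 0.238 and 0.439 in their deviations from the group means, against -0.418 to 0.191 for other pairs across groups. Cold water 1 was closest to control 2 (0.191), so these values did not settle whether replicate numbers pair the libraries. An edgeR fit with the replicate number as a block passed 0 genes, and the lowest adjusted p of the Ighv genes in it was 0.216. With that block Ighv1-84 was at 0.07 and Ighv1-54 at 0.91. The median log2 difference of the Ighv genes was 1.06 with limma on log2(FPKM + 1), whose pseudocount shrinks low values, and 0.69 to 2.20 when a library was left out, the lowest without cold water 1. The difference of the summed level was 0.61 to 1.72 when a library was left out and 1.29 to 1.35 under the other settings. A mean of at least 5 FPKM kept 27 genes, and a mean of at least 1 FPKM in each group kept 44.

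Of 330 values of single named genes, 313 kept their direction and side of the threshold, 5 passed in DESeq2 alone and 12 changed sign. Those were Ighv1-54 at 0.02 with library totals alone, 0.45 and 1.11 with limma on log2(FPKM + 1) and log2(FPKM + 0.1), and -0.72 to 3.30 when a library was left out, the highest without control 3. Ighv1-84 was at 0.23 with limma on log2(FPKM + 0.1) and -1.12 to 0.31 when a library was left out. Ighv1-12, at 0.16 with all libraries, was at -0.79 to 2.03 when a library was left out. The cause was not tested.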

Other observations

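The sum of the Ighv genes below the level of the rule was also highest in cold water 1. The 45 genes not kept summed to 766, 204 and 306 counts in cold water libraries and 176, 232 and 92 counts in control libraries, and the groups overlapped. Without the level filter, 98 Ighv genes had a count, and 32 of them were higher in cold water at an unadjusted p under 0.05 in edgeR, against 2.14% of all genes, while 0 were lower and 0 passed the adjusted threshold. Of the 30 genes not kept that had a count, 3 were higher at that p. Among 70 Ighv pseudogene rows, which carry no functional V segment, 6 had a count, with sums of 20, 20 and 5 counts in cold water libraries and 3, 8 and 0 counts in control libraries. With 3.76 counts to a fragment these sums are too low to compare.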
